A study of Homo sapiens with 2 samples.

Results

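The broadest accessible regions that the T-cell leukaemia lines Jurkat and RPMI-8402 have in common were taken from their ATAC-seq peak lists. A peak was included when it lay on chromosomes 1 to 22, was at least 1500 bp wide and overlapped a peak of the other line by at least 1 bp. The rule gave 392 of 24437 autosomal peaks in Jurkat, a share of 1.60% (95% exact binomial interval 1.45 to 1.77%), and 671 of 23629 in RPMI-8402, a share of 2.84% (2.63 to 3.06%). These peaks are called broad shared peaks below. Both lines are established human cultures that derive from T-ALL, the acute lymphoblastic leukaemia that arises from T-cell precursors, and were grown in RPMI-1640 medium with tetracycline-free serum. No treatment is named for either group. ATAC-seq uses the Tn5 transposase, which inserts sequencing adapters where DNA is not covered by nucleosomes, and 1 library was sequenced per line with paired-end reads of 150 bp. With 1 library per line, no value carries a replicate error and no difference between the lines was tested. The intervals hold counting error alone. They would be too narrow where fragments are PCR copies of each other.

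Most accessible regions are short, since one regulatory element displaces one or a few nucleosomes. An accessible region that runs over a longer stretch is typically an active promoter in a CpG island, a GC-rich stretch with many CpG dinucleotides that stays unmethylated, or several elements that lie so close together that a peak caller joins them. Genes with broad open promoters are often housekeeping genes, growth-response genes or regulators of cell identity, and reads that map to repeats near centromeres can also pile up into broad peaks.

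Genes were named at these peaks from their well-known hg19 positions, because no hg19 gene annotation was used here. A named gene therefore means a start or body at or within the peak as recalled, and exon, intron and UTR were not analysed here. Every named symbol was on the same chromosome in the RefSeq gene table. The members were chosen by width, so widths, and the strength and summit values of the same peaks, are given as descriptions.

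Promoter sequences of 6 genes named at broad shared peaks of both lines are shown as examples. They are the 250 bases before the gene start from RefSeq on GRCh38.p14, on the gene's strand, while the peaks are on hg19, so their place inside the peak was not computed. Capitals mark the GC box, GGGCGG or its reverse complement CCGCCC, and the core of the ETS transcription factor motif, CCGGAA or TTCCGG.
MIR17HG: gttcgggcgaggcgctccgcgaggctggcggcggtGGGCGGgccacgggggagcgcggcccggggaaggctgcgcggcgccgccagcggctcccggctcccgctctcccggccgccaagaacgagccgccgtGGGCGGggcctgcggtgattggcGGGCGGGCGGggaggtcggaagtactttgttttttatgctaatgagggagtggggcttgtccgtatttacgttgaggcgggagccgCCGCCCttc
HNRNPU: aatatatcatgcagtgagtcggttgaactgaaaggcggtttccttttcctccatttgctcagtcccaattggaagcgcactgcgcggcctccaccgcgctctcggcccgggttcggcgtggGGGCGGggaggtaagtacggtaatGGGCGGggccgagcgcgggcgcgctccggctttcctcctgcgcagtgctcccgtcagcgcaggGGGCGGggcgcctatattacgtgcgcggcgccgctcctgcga
BHLHE40: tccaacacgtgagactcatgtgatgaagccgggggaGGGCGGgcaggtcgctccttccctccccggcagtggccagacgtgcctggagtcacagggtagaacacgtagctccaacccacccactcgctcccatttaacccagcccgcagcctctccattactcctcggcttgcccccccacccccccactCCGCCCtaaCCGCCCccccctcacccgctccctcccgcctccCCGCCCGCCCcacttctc
PTMA: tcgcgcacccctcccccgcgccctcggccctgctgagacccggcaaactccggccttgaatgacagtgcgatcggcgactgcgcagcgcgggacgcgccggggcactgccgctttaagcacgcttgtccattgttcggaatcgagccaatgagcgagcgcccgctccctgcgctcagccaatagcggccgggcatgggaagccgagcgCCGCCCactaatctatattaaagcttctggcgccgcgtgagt
SOX12: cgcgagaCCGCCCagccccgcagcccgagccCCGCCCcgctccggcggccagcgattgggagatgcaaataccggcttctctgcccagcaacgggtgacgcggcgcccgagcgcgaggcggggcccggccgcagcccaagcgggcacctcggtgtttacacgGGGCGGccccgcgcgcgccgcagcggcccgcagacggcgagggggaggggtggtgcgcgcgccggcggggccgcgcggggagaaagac
RUNX1: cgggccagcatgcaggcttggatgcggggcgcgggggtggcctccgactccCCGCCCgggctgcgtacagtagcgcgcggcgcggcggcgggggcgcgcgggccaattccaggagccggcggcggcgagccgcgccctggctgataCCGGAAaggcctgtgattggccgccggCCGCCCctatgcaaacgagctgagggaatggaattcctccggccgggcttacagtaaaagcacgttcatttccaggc
The MIR17HG and BHLHE40 windows each held 5 GC boxes, counting overlapping matches, the HNRNPU and SOX12 windows 3, the RUNX1 window 2 and the PTMA window 1. The only ETS core was in RUNX1. GC content ran from 66.0% in HNRNPU to 79.2% in SOX12.

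Over all genes with a start named at a broad shared peak, 58 of 107 had a single promoter window in RefSeq. The median GC content of these 58 windows was 68.4%, against 62.4% in 11234 single-window autosomal protein-coding genes. The ratio of observed to expected CpG dinucleotides had a median of 0.86, against 0.75, and was at least 0.6 in 53 of the 58 (91.4%), against 64.1% of the 11234. A GC box on either strand was present in 47 windows (81.0%), against 56.7%. An ETS core was present in 12 windows (20.7%), against 20.5%. The CCAAT box, searched as CCAAT or ATTGG, was in 39.7% against 35.1%, the E box CACGTG in 13.8% against 7.82%, TATAAA or TTTATA in 13.8% against 10.2%, and the cyclic AMP response element TGACGTCA in 3.45% against 2.60%. The 107 genes are those recognised among the broadest, listed or most different sites, so they are not a sample of all members. Promoters at narrower shared peaks were not compared. The background includes promoters that were closed in these cells, and a match is a description of the letters, not a bound site.

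Both lists of broad shared peaks included the start of MIR17HG, the host gene of the miR-17 to miR-92a cluster, which is known for driving growth of lymphoid cells. The mature forms of its 6 microRNAs are shown with their seed, bases 2 to 8, in capitals, since the seed sets which messages a microRNA can pair with. They carry 4 different seeds.
hsa-miR-17-5p: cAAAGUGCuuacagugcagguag
hsa-miR-20a-5p: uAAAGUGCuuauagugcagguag
hsa-miR-18a-5p: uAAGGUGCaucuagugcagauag
hsa-miR-19a-3p: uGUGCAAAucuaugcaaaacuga
hsa-miR-19b-3p: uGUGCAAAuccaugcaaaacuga
hsa-miR-92a-3p: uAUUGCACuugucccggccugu
The first and the second share a seed, as do miR-19a-3p and miR-19b-3p. The MIR17HG peak, at chr13:91999356-92001610 in Jurkat, was 2255 bp wide there and 2272 bp in RPMI-8402. Its solved pileup, the number of fragments over the highest base, was 204 in Jurkat and 103 in RPMI-8402.

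By an overlap of at least 1 bp, broad peaks were nearly always shared, and RPMI-8402 had more of them than Jurkat. Of the autosomal peaks at least 1500 bp wide, 392 of 397 in Jurkat (98.7%, 97.1 to 99.6%) and 671 of 703 in RPMI-8402 (95.4%, 93.6 to 96.9%) had a partner in the other line, against 67.2% and 68.6% of all autosomal peaks. Peaks of 1000 to 1499 bp were shared almost as often, at 97.4% and 93.2%. The 5 broad Jurkat peaks with no partner were 1503 to 1835 bp wide. When 50% of both peaks had to overlap, 380 of the 397 broad Jurkat peaks and 519 of the 703 in RPMI-8402 had a partner. Joined by position, the broad shared peaks of both lines made 798 sites. Of these, 265 (33.2%, 29.9 to 36.6%) were broad in both lines, while 127 were broad in Jurkat alone and 406 in RPMI-8402 alone. Widths of 2000 bp or more occurred in 36 Jurkat and 101 RPMI-8402 members, and 3000 bp or more in 1 and 8. The narrowest autosomal peak was 261 bp in Jurkat and 309 bp in RPMI-8402, so 1500 bp was 5.75 and 4.85 times the narrowest peak. The part of that difference in the number of members was not tested. With as many wide peaks taken from RPMI-8402 as Jurkat had, 397, the limit in RPMI-8402 was 1663 bp and 379 of them were shared.

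At the limit itself, folds overlapped. The 5 narrowest Jurkat members were 1501 to 1503 bp wide with folds of 8.04 to 10.5, and the 5 widest shared peaks just outside were 1497 to 1499 bp wide with folds of 4.66 to 12.0. In RPMI-8402 the folds were 5.43 to 10.5 just inside, at 1500 to 1502 bp, and 5.83 to 9.73 just outside, at 1498 to 1499 bp.

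The broadest sites in Jurkat lay mostly at gene starts, among them CITED2, DIPK2A, HNRNPU, MIR17HG, BHLHE40 and KLF12, and nearly all of them were also broad in RPMI-8402. Of the 15 broadest, 2178 to 3148 bp wide, 13 lay at a named gene, 1 beside one and 1 next to the centromere of chromosome 6, and 13 overlapped a RPMI-8402 peak that was itself a member. The pericentromeric peak, chr6:58776291-58779438, was the widest, at 3148 bp against 3110 bp in RPMI-8402, and had pileups of 983 and 1068 over backgrounds of 225 and 274.

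Next in width came chr17:8124260-8126683 in LINC00324, 2424 bp in Jurkat and 2473 bp in RPMI-8402. The RefSeq table lists 7 transfer RNA genes within 3 kb of LINC00324. A peak beside ANG and RNASE4, genes of secreted ribonucleases, lay in a second neighbourhood of this kind, with 3 transfer RNA genes within 3 kb of ANG. It was 2188 bp wide in Jurkat and 2775 bp in RPMI-8402. Transfer RNA genes are short and are transcribed by RNA polymerase III.

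CITED2, a co-regulator that binds the CBP and p300 acetyltransferases, had a peak of 2409 bp in Jurkat at chr6:139694541-139696949 and 2382 bp in RPMI-8402, with pileups of 171 and 202. DIPK2A had the highest pileups among the broadest sites outside the pericentromeric ones, 359 in Jurkat and 364 in RPMI-8402, with widths of 2337 and 2381 bp. HNRNPU, a nuclear RNA-binding protein, measured 2255 and 2095 bp. These sites had close to the same width in both lines.

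BHLHE40, a basic helix-loop-helix repressor, was broad in both lines but differed in pileup: 2251 bp and a pileup of 97 in Jurkat, against 1629 bp and 219 in RPMI-8402. The wider peak had the lower pileup but the higher fold, 7.11 against 6.39. TOB1, of the antiproliferative BTG/TOB family, measured 2245 and 2272 bp. CUL4A and PCID2, which share a start region and encode a ubiquitin ligase scaffold and an mRNA export factor, measured 2224 bp in Jurkat and 1584 bp in RPMI-8402.

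The sites that were not broad in RPMI-8402 were INSIG1 and AMD1. INSIG1, which restrains sterol synthesis, was a single peak of 2218 bp in Jurkat and peaks of 1329 and 532 bp in RPMI-8402. AMD1, an enzyme of polyamine synthesis, was 2210 bp in Jurkat and split into 720 and 877 bp in RPMI-8402. The remaining sites of the 15 were KLF12, a Krüppel-like factor (2216 and 2154 bp), PFN1 with ENO3, encoding the actin-binding protein profilin and a muscle enolase (2185 and 2066 bp), and PTMA, prothymosin alpha (2178 and 2186 bp).

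Most of the 15 broadest sites in RPMI-8402 were not among the 15 broadest in Jurkat, and most of them covered several Jurkat peaks. Of its 15 broadest, 2479 to 3487 bp wide, 12 overlapped 2 or 3 Jurkat peaks and 8 overlapped a Jurkat member. A gene is named at 9 and beside 2, 3 were pericentromeric, and 1 is not described by gene. Only 2 sites were among the 15 broadest of both lines, of 28 sites in all: the pericentromeric site on chromosome 6 and the one beside ANG. Of the 50 broadest, 15 sites of 85 were on both lists. These counts depend on the rank cut: LINC00324 was at rank 2 in Jurkat and 17 in RPMI-8402, and SPRY1 at rank 21 and 8.

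HIVEP2, a zinc-finger transcription factor, had the widest autosomal shared peak of either line, 3487 bp at chr6:143265227-143268713, where Jurkat had peaks of 1100 and 1561 bp. SOX12, a SOXC-group transcription factor, followed with 3214 bp against 1949 and 380 bp. RASGRP2, an exchange factor that activates RAP proteins, had 3205 bp against 655 and 1108 bp. In each of these, the pileup was 114 to 132 in RPMI-8402 and the fold under 5.

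CXCR4, the chemokine receptor that guides T-cell precursors, had a peak of 3144 bp in RPMI-8402 at chr2:136873950-136877093 and peaks of 1092 and 274 bp in Jurkat. Its pileups were close, 80 in RPMI-8402 and 77 at the widest Jurkat peak. WDR1, an actin-disassembly factor, had a peak of 3066 bp that covered 3 Jurkat peaks of 544, 441 and 274 bp. SPRY1, an inhibitor of RAS signalling, measured 3016 bp against a single Jurkat peak of 2129 bp.

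YWHAZ, a 14-3-3 adaptor protein, had 2905 bp against 480 and 1818 bp. CPEB2, a regulator of translation, had 2626 bp against 1303 and 291 bp and the highest fold of the 15, 7.10. KLF10, another Krüppel-like factor, had 2556 bp against 840 and 924 bp. A peak upstream of PAX3, a transcription factor of neural crest and muscle, measured 2479 bp against 524 and 394 bp. The pericentromeric sites on chromosome 16 were 3032 bp, chr16:33963088-33966119, and 2583 bp, chr16:46404498-46407080.

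**Figure D1:**
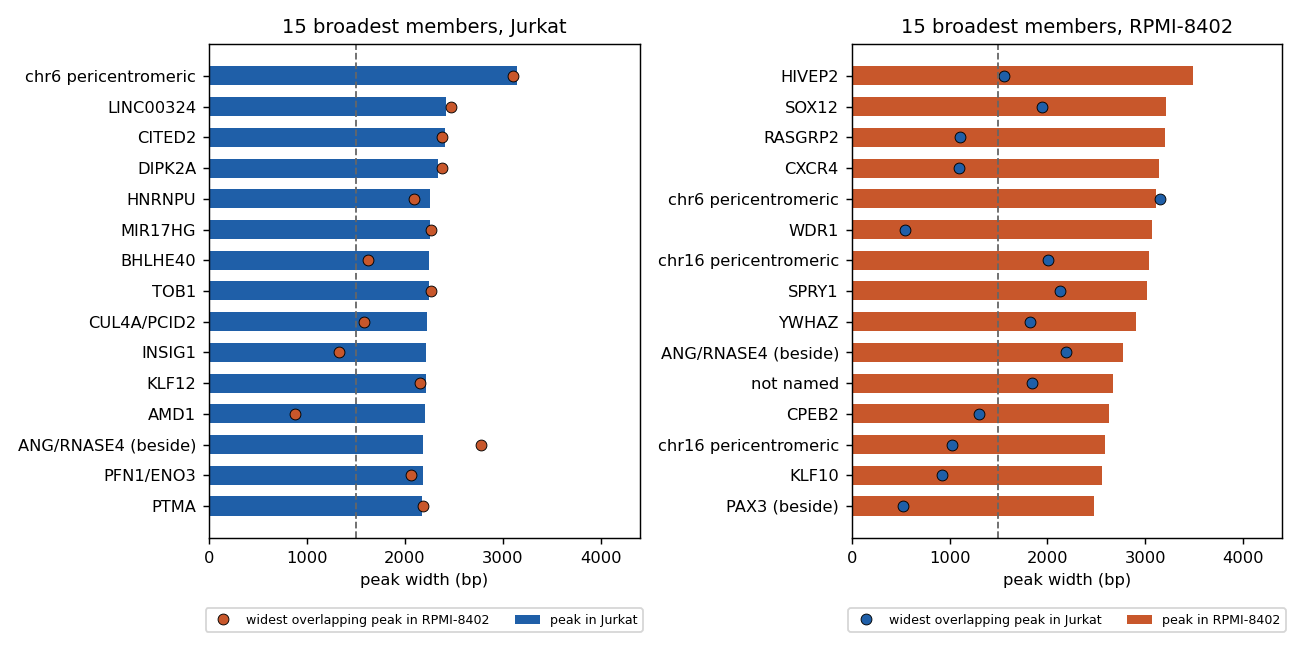
Widths in bp of the 15 broadest shared peaks of Jurkat (left) and RPMI-8402 (right) as bars, with the widest overlapping peak of the other line as a circle and the limit of 1500 bp dashed. In Jurkat 13 of 15 circles pass the limit, and in RPMI-8402 8 of 15 do; "beside" marks a gene next to the peak.

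Further down the 50 broadest, names beyond the 15 were chosen after the values were seen. RBPJ, the DNA-binding factor of the NOTCH pathway, was 2166 bp wide in Jurkat and 2196 bp in RPMI-8402, and MAML3, a co-activator in that pathway, had 2213 bp in RPMI-8402 and 371 and 1039 bp in Jurkat. The RBPJ summit lay near the lower-coordinate edge in both lines, at 8.49% and 11.6% of the width. TOB2 measured 2147 and 1989 bp, and CDKN2C, an inhibitor of the cell-cycle kinases CDK4 and CDK6, 2038 bp in Jurkat and 1337 and 375 bp in RPMI-8402. LMNB1, the nuclear lamin B1, measured 2175 and 2142 bp with folds of 10.9 and 7.86. NR3C1, the glucocorticoid receptor, had 2231 bp in RPMI-8402 over Jurkat peaks of 1165 and 798 bp. MYD88, an adaptor of innate immune receptors, had 2244 bp over 836 and 704 bp. BCL6, a transcriptional repressor, had 2271 bp over 986 and 395 bp. Histone genes at H1-4 and H2BC5 and at H2BC21 and H2AC20 had 2463 and 2185 bp in RPMI-8402, each over a pair of Jurkat peaks. At 5 of the sites among the 50 broadest of a line, no gene is named here.

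Genes of 4 lists were looked for among the members by recalled name. A gene at a narrower or unrecognised peak counts as absent, so the counts are lower limits. The share over all genes was not computed, so no list can be called frequent or rare among the members. Of 26 genes of T-cell identity, 2 were recognised: CD247, the T-cell receptor zeta chain, in Jurkat, and CXCR4 in RPMI-8402. The CD247 peak, chr1:167486351-167487856, was just inside the limit at 1506 bp, with a pileup of 24, the lowest of any Jurkat member. Its RPMI-8402 partner was 1095 bp wide with a pileup of 27. No peak was recognised at any of the CD2, CD3, CD4, CD5, CD7 or LCK genes in this set.

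Of 52 T-cell and T-ALL transcription factors and related genes, such as RAG1 and PTCRA, 10 were recognised. They were RUNX1, HES4, EGR1 and ELF1 in both lines, GATA3 and NOTCH1 in Jurkat alone, and FLI1, ERG, FOXP1 and LEF1 in RPMI-8402 alone. RUNX1, a factor needed for T-cell development, had peaks of 1833 and 1893 bp at chr21:36260942-36262774 in Jurkat and about the same place in RPMI-8402, with pileups of 74 and 80. HES4, a target of NOTCH signalling, measured 1513 bp in Jurkat and 2024 bp in RPMI-8402. ELF1, an ETS factor, whose peak also holds the start of WBP4, measured 1849 and 1671 bp, with pileups of 135 and 66. EGR1, an immediate early factor, measured 1637 and 1737 bp, with pileups of 369 in Jurkat and 158 in RPMI-8402.

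GATA3, a master regulator of T cells, was broad in Jurkat at 1791 bp and 1214 bp wide in RPMI-8402, with pileups of 81 and 78. NOTCH1 was broad in Jurkat at 1509 bp and missed the limit in RPMI-8402 by little, at 1483 bp. Among the genes broad in RPMI-8402 only, FOXP1 had 2405 bp against 785 and 268 bp, a peak upstream of LEF1 2009 bp against 812 bp, ERG 1690 bp against 548 bp and FLI1 1538 bp against 919 bp. All 4 are transcription factors of lymphoid or other blood cells.

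Of 27 growth and housekeeping genes, 8 were recognised. GAPDH, a glycolytic enzyme, was broad in both, at 1809 and 1793 bp with pileups of 120 and 133. ACTB, EEF1A1 and NCL, for actin, a translation elongation factor and nucleolin, were broad in Jurkat, at 1543, 1658 and 1514 bp, with RPMI-8402 partners of 1412, 1257 and 1379 bp. TUBA1B, BTG1, DUSP1 and IER2, for tubulin, a BTG/TOB family protein, a MAP kinase phosphatase and an immediate early protein, were broad in RPMI-8402, at 1545, 1656, 1905 and 1843 bp. None of 19 genes of other cell types was recognised.

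Overlap is mutual, so partners of similar width are counted about equally often from either line by construction. Members with such a partner were a larger share of the 392 Jurkat members than of the 671 RPMI-8402 members. With nearly equal counts, the shares below differ with the number of members. The widest overlapping peak had a median width of 1604 bp for Jurkat members and 1379 bp for RPMI-8402 members, whose own medians were 1640 and 1700 bp. It was itself a member for 265 Jurkat members (67.6%, 62.7 to 72.2%) and for 265 RPMI-8402 members (39.5%, 35.8 to 43.3%). It differed by no more than 200 bp in 247 Jurkat members (63.0%) and 248 RPMI-8402 members (37.0%). Partners narrower than 1000 bp were found for 15 Jurkat members and 179 RPMI-8402 members.

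Splitting was mostly in one direction. Only 8 Jurkat members (2.04%, 0.89 to 3.98%) lay over more than 1 RPMI-8402 peak, while 124 RPMI-8402 members (18.5%, 15.6 to 21.6%) lay over more than 1 Jurkat peak, 121 of them over 2 and 3 over 3. The gap between the Jurkat peaks under 1 RPMI-8402 member had a median of 413 bp and ran from 263 to 1139 bp. The 8 gaps in the other direction ran from 374 to 1034 bp, with a median of 541.5 bp. The narrowest autosomal peak was 261 bp in the Jurkat list and 309 bp in the RPMI-8402 list. That width differs between the lines along with the splitting, and its part was not tested.

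**Figure D2:**
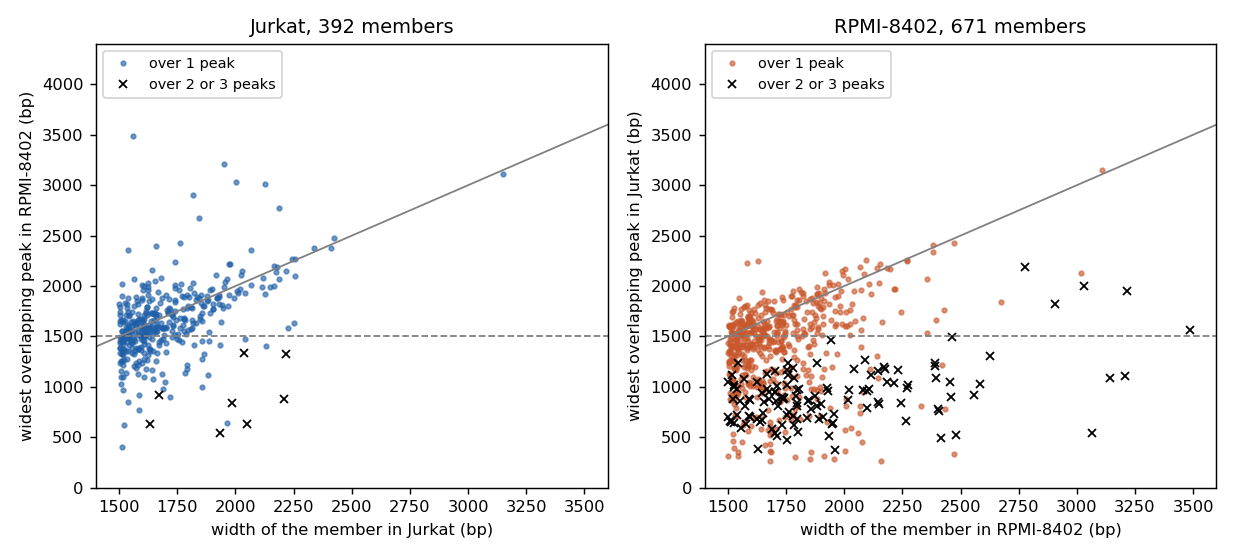
Width in bp of each broad shared peak (x axis) against the widest peak of the other line that it overlaps (y axis), for 392 Jurkat members (left) and 671 RPMI-8402 members (right); the solid line marks equal width, the dashed line 1500 bp, and crosses the members over 2 or 3 peaks. Crosses number 8 on the left and 124 on the right, most of them under 1500 bp on the y axis.

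Summits of broad shared peaks lay less often near the centre of the peak than those of all autosomal peaks. The distance from the summit to the nearer edge had a median of 30.7% of the width in both lines (502.5 bp in Jurkat and 536 bp in RPMI-8402), against 38.6% and 38.5% over all autosomal peaks. A summit placed evenly along the peak would give 25%, so the summits of members were still nearer the centre than that. The summit fell between 40 and 60% of the width in 21.9% of Jurkat members and 23.8% of RPMI-8402 members, against 44.6% and 44.2% of all autosomal peaks. It fell in the outer 25% at either end in 31.6% (27.1 to 36.5%) and 30.7% (27.2 to 34.3%), against 14.0% and 14.3%.

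The sides were even: the lower-coordinate side held the summit in 47.2% of Jurkat and 49.3% of RPMI-8402 members. Summits in the last 10% at either end were rare, at 1.53% and 1.94%, against 1.60% and 1.72% of all autosomal peaks. The width class mattered beyond the limit as well. Shared peaks of 1000 to 1499 bp had their summit in the outer 25% in 13.3% (Jurkat) and 9.90% (RPMI-8402), and members of 2000 bp or more in 55.6% and 47.5%.

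**Figure D3:**
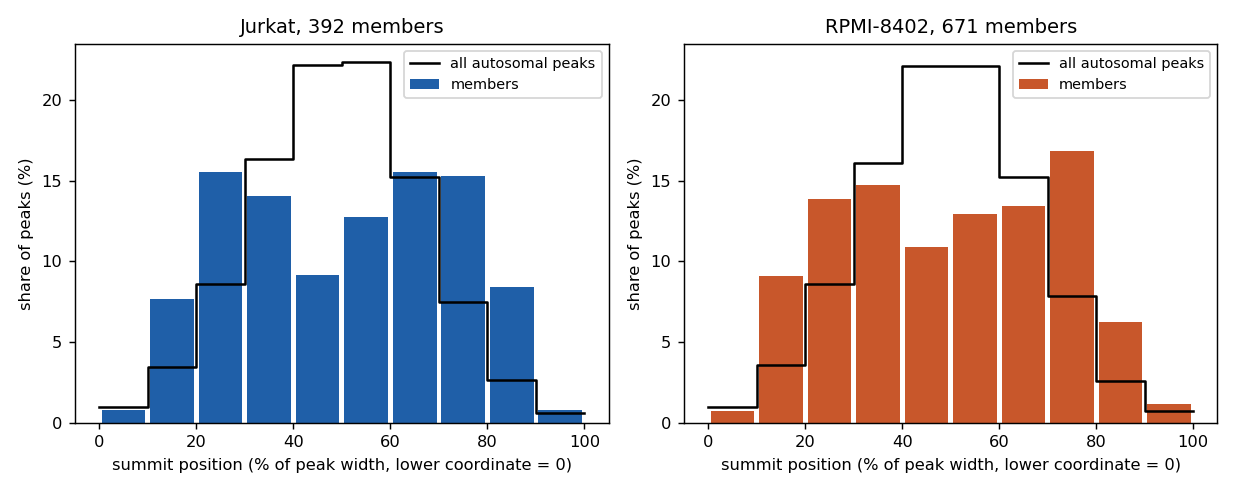
Share of peaks (%) by position of the summit along the peak, in steps of 10% of the width, for broad shared peaks (bars) and all autosomal peaks (line), Jurkat left and RPMI-8402 right. The bars dip in the middle, where the line is highest, and exceed the line between 10 and 30% and between 70 and 90% of the width.

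Where a single gene start was named at a member and its strand was known, the summit lay more often on the upstream side of the peak. In Jurkat this held for 28 of 41 genes, leaving 13 on the downstream side (31.7%, 18.1 to 48.1%), and in RPMI-8402 for 34 of 54, leaving 20 (37.0%, 24.3 to 51.3%). Sides are divided at the middle of each line's own peak, not at the gene start. The genes were picked by name, so the intervals do not test an even split, which the RPMI-8402 interval includes. Many of these sites are in both counts. The genes are those recognised among the broadest, listed or most different sites, not a sample of all members. RBPJ and MIR17HG, read from lower to higher coordinates, had the summit upstream in both lines, at 8.49% and 26.6% of the width in Jurkat and 11.6% and 24.7% in RPMI-8402. BHLHE40, read in the same direction, had it before the middle of the Jurkat peak, at 28.3%, and past the middle of the RPMI-8402 peak, at 58.2%. The BHLHE40 summits of the lines were only 182 bp apart, in peaks of 2251 and 1629 bp. TOB2, read in the other direction, had the summit at 91.7% in Jurkat and 93.5% in RPMI-8402, on the upstream side in both.

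Broad shared peaks had high fragment pileups but only moderate fold enrichment. The deposited fold, the pileup plus 1 over the local background plus 1, had a median of 8.74 in Jurkat members and 7.11 in RPMI-8402 members, against 7.73 and 7.26 over all autosomal peaks. The median pileup was 120.5 and 109, against 37 and 38. The local background, in fragments over a base, was 12.6 and 14.4, against 3.97 and 4.27. Fold, pileup and background come from the same fragments as the width, so they are not independent of the rule.

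Of the 5 width classes of shared peaks, the one of 1000 to 1499 bp had the highest median fold. Peaks of 1000 to 1499 bp had a median fold of 10.95 in Jurkat and 9.25 in RPMI-8402, and members of 2000 bp or more 7.36 and 5.74. Pileup changed little over the same step, from 110 to 124 in Jurkat and from 96 to 113 in RPMI-8402, while the background went from 9.16 to 14.3 and from 9.56 to 18.7. By −log10 q, 105 Jurkat members (26.8%) and 181 RPMI-8402 members (27.0%) were in the strongest 10% of their list. By fold, 4 and 3 members were.

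**Figure D4:**
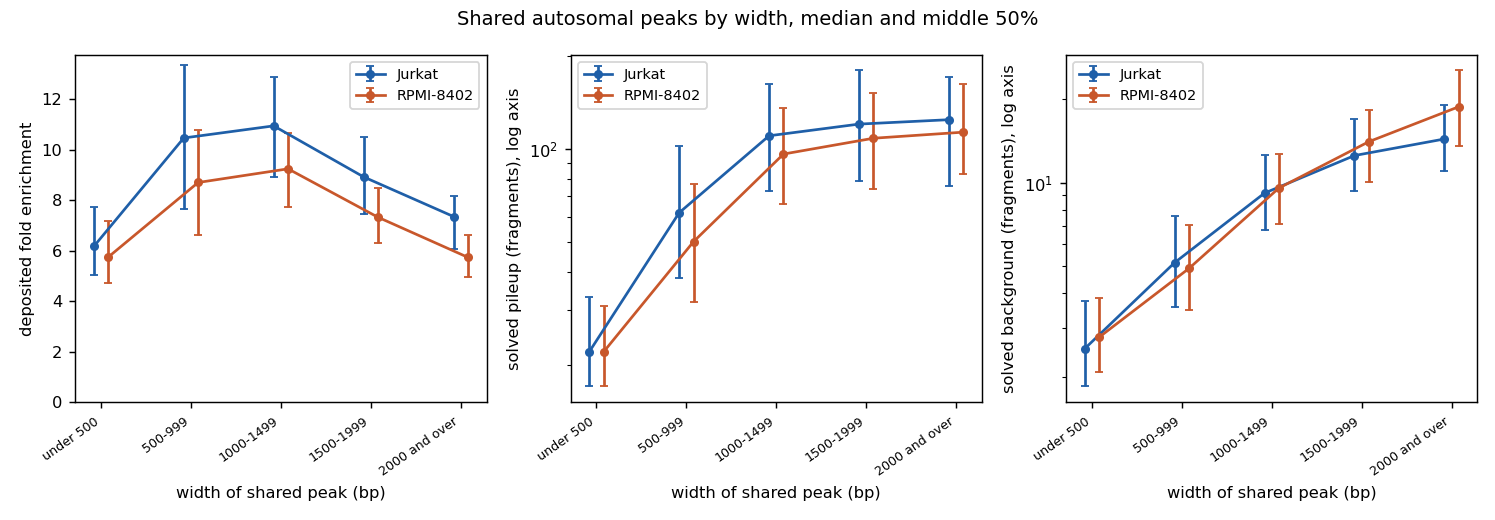
Median (point) and middle 50% (bar) of the deposited fold, the solved pileup and the solved background, both in fragments on log axes, for shared autosomal peaks in 5 width classes, Jurkat blue and RPMI-8402 orange. Median fold is highest in the class of 1000 to 1499 bp, at 10.95 and 9.25, while the background goes on rising with width.

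The highest fold among Jurkat members was 15.1, at chr3:122101834-122103441, with 10.4 at its RPMI-8402 partner. In RPMI-8402 it was 13.7, at chr8:12051048-12052645, over a Jurkat peak of 21.1. The lowest were 3.74, at chr3:75696953-75698671 in Jurkat, and 2.07, at chr2:133018866-133020437 in RPMI-8402. A background of 50 or more was solved under 6 Jurkat and 11 RPMI-8402 members. They included chr18:107858-109514, with a pileup of 4299 over 510 in Jurkat and 2480 over 332 in RPMI-8402, chr20:26188786-26190511, with 2898 over 318 and 1417 over 204, and the sites next to the centromeres of chromosomes 6 and 16. No filter for such regions had been applied. Without these members, the median fold, summit position and partner width of each line stayed within their counting intervals.

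For the comparison of signal between lines, sites with 1 peak in each line were used, and log2 pileup ratios were centred by subtracting the median over 15948 autosomal pairs, -0.18 (RPMI-8402 over Jurkat). A broad shared peak was part of 666 pairs. Of these, 12 (1.80%) were at least 2-fold higher in Jurkat, against 4.97% of all pairs, and 81 (12.2%) were at least 2-fold higher in RPMI-8402, against 9.11%. The split depended on the scale. With the deposited fold in place of the pileup the counts were 6 (0.90%) and 0, against 1.29% and 0.45% of all pairs. The pileup was also divided by the lowest background of its library, which moves the median of all pairs to -0.48. The counts were then 65 (9.76%) and 33 (4.95%), against 18.9% and 3.18% of all pairs. More were higher in Jurkat, among members as among all pairs. Uncentred, the counts were 23 (3.45%) and 58 (8.71%), against 8.69% and 6.68%. No direction is therefore stated for the members as a group.

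By centred pileup, 2-fold differences were most frequent at sites broad in RPMI-8402 only. Of the 260 pairs broad in both lines, 4 (1.54%) were higher by 2-fold in Jurkat, and RPMI-8402 was the higher one in 17 (6.54%). Over all pairs these shares were 4.97% and 9.11%. For these 260 the counts were 25 and 3 over the lowest background, 9 and 8 uncentred, and 1 and 0 by deposited fold. On the centred scale, of the 287 broad in RPMI-8402 only, 60 (20.9%) were higher there. Of the 119 broad in Jurkat only, Jurkat was higher in 8 (6.72%) and RPMI-8402 in 4 (3.36%). Over the lowest background, the peaks broad in RPMI-8402 only included 16 with the Jurkat value higher and 30 with the RPMI-8402 value higher, and those broad in Jurkat only 24 and 0. Width and pileup are taken from the same fragments, so these counts are not independent of the rule.

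The largest differences, named after the values were seen, were higher in RPMI-8402 by centred pileup. By deposited fold, no pair with a broad shared peak was 2-fold higher there. At MMP16, a membrane metalloproteinase, the pileup was 174 in RPMI-8402 and 17 in Jurkat, a centred ratio of 11.6, with widths of 2002 and 369 bp. GOLIM4, a Golgi membrane protein, followed with 94 against 15 and a ratio of 7.08. MECOM, a transcription factor of blood stem cells and an oncogene in myeloid leukaemia, had 178 against 32 and a ratio of 6.28. The peak upstream of KLF9 had 91 against 18 and a ratio of 5.71.

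Then came LRRN1, a neuronal leucine-rich repeat protein, with 216 against 43, GAB1, a signalling adaptor, with 67 against 15, and ROBO1, an axon guidance receptor, with 182 against 41. NKAIN2 had 91 against 21, GUCY1B3, a guanylate cyclase subunit, 164 against 40, and EPHA4, an ephrin receptor, 53 against 13. MEIS1, a homeobox factor of blood progenitors, had a peak just upstream with 65 against 18. At these sites Jurkat had a peak too, but of 313 to 1139 bp. By deposited fold, RPMI-8402 was lower than Jurkat at MECOM (6.57 against 8.33), GUCY1B3 (8.48 against 11.4) and KLF9 (4.45 against 4.50). At the other genes named from MMP16 to MEIS1 it was higher, by less than 2-fold.

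Among the 12 pairs that were 2-fold higher in Jurkat by centred pileup, the largest ratio, 4.58, belonged to chr19:29123084-29124785, with 124 against 24, where no gene was named. AIM1 had 56 against 15. CUL4A with PCID2 had 117 against 47, DLEU2, a non-coding gene that hosts miR-15a and miR-16-1, 177 against 73, LUC7L2, a splicing factor, 255 against 109, and EGR1 369 against 158. The last 4 were broad in both lines, with centred ratios of 2.07 to 2.20. BHLHE40 and ARHGAP5 differed the other way while broad in both, with 97 against 219 and 34 against 123.

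At sites broad in both lines, the summits did not always coincide. The distance between the summits had a median of 112.5 bp in the 260 pairs, against 67 bp in all autosomal pairs, and was over 500 bp in 43 (16.5%), against 1.49%. In 13 pairs it was over 1000 bp. A wider peak leaves more room for the summit. In pairs that were 1000 to 1499 bp wide in both lines, the median was 74 bp and 2.43% were over 500 bp.

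**Figure D5:**
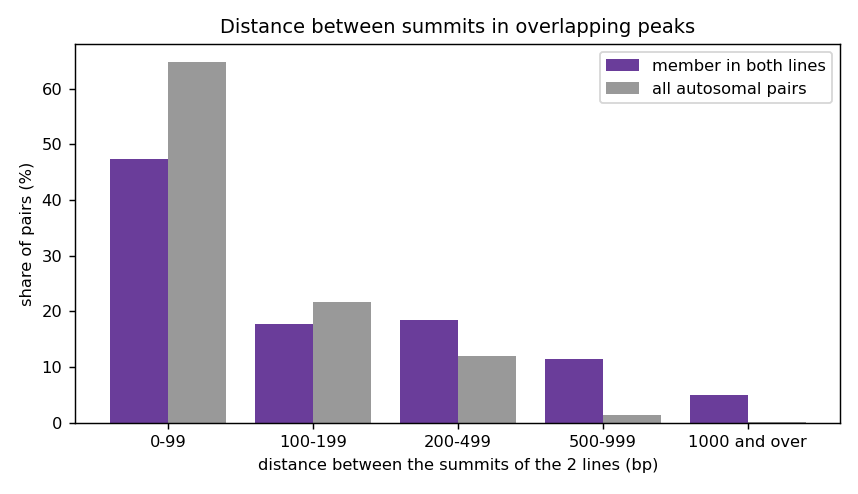
Share of pairs (%) by the distance in bp between the summits of both lines, for 260 pairs broad in both lines (purple) and 15948 autosomal pairs (grey). Distances of 500 bp or more make up 16.5% of the purple and 1.49% of the grey pairs.

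The widest shift, 1465 bp, was at SETD7, a histone lysine methyltransferase, where the summit lay at 81.6% of the width in Jurkat and 11.1% in RPMI-8402. Pileups there were close, at 62 and 58. VIM, the intermediate filament vimentin, had a shift of 1408 bp, LUC7L2 1203 bp, STXBP5 1148 bp and HNRNPU 1140 bp, each with the summits on opposite sides of the peak. SPRY1 had a shift of 1357 bp with both summits on the lower-coordinate side. At HNRNPU the uncentred pileups were 186 and 172, and the highest base lay at 77.4% of the width in Jurkat and 22.3% in RPMI-8402.

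Broad shared peaks were spread over all 22 autosomes in both lines. The share of peaks that were members ran from 0.40% on chromosome 21 to 2.39% on chromosome 4 in Jurkat, and from 1.27% on chromosome 16 to 4.78% on chromosome 21 in RPMI-8402. Chromosome 21 differed most of the 22, with 1 of 252 Jurkat peaks (exact interval 0.010 to 2.19%) and 12 of 251 RPMI-8402 peaks (2.49 to 8.20%). Over all autosomes the shares were 1.60% and 2.84%. The chromosome was picked as the extreme after the values were seen, so its intervals are not a test. The Jurkat member there was the RUNX1 peak. Chromosome 20 had 5 members in Jurkat and 19 in RPMI-8402, and chromosome 18 had 7 and 8. The nearest other peak was a median of 25100 bp away for Jurkat members and 27915 bp for RPMI-8402 members, against 22169 and 27091 bp over all autosomal peaks. Another peak within 1 kb was found for 2.81% and 1.19% of members, against 5.01% and 2.34% of all peaks and 2.96% and 1.57% of shared peaks of 1000 to 1499 bp.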

How the data were processed

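One ATAC-seq library per line was used, with one deposited peak list of 10 columns each. The submitters' processing notes list the build hg19 and the tools Bowtie2, SAMtools, Picard and MACS2 (2.1.1.2016030), but no roles or settings. For read filters, duplicates, the Tn5 offset and total depth, nothing was given in the sources used here. For every peak the authors deposited start and end positions, a summit offset, a score, a fold enrichment (column 7, a ratio over background) and 2 values on a −log10 scale, for the p-value and for the q-value.

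The members, gene lists and comparisons were chosen with earlier results of these data known. Overlaps were computed with pandas 2.3.3, numpy 2.4.6 and scipy 1.17.1 under Python 3.11.15, and the members were checked with bedtools 2.31.1, which gave the same 392 and 671. The pileup and background of each peak were solved from the deposited fold and −log10 p, where the fold is (pileup + 1)/(background + 1) and p a Poisson tail; the pileup was whole within 0.01 in 100% of autosomal peaks of both lists. The solving step and the overlap were tested on simulated data. Shares have exact (Clopper-Pearson) 95% intervals. A pair is a site with 1 peak in each line, overlapping no other.

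The naming rule took genes at the 15 broadest members of each line, at members next to the width limit and in 4 lists. The lists held 26 T-cell identity genes, 52 transcription factors and related genes, 27 growth and housekeeping genes and 19 genes of other cell types. Others were added after their values were seen, and some sites are not reported by gene here. Gene names rest on recalled hg19 positions, with rough positions in the RefSeq table on GRCh38.p14 used only to shortlist symbols; no coordinate of that table is printed or converted. No hg19 annotation was used here, so the planned count of members at gene starts was not made. Members on X and the mitochondrial genome were left out of the comparisons. Alternatives were other widths, overlap rules, partner widths and scales of the pair ratio.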

Additional observations from a re-analysis of the deposited data

Results flagged for a closer look

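Broad peaks shared by both lines were also present outside the autosomes, in data that no comparison above uses. By the same width and overlap, chromosome X held 9 in Jurkat, with a median fold of 8.39 and a widest peak of 2258 bp, and 21 in RPMI-8402, with a median fold of 7.39 and a widest peak of 2339 bp. They were 1.30% of 693 and 2.21% of 949 peaks on X, against 1.60% and 2.84% of autosomal peaks. The mitochondrial genome held 2 in Jurkat and 3 in RPMI-8402, with median folds of 2.13 and 2.01 and widest peaks of 2861 and 5245 bp. No control library was used here, so a background level was not measured.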

How the results depend on the processing

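Each choice was changed alone, giving 46 alternative values, of which 20 stayed within 1.5 times the count or within the counting interval of the median and 26 did not. With a limit of 1200 bp there were 1493 Jurkat and 2184 RPMI-8402 members, 1069 of them in each line with a partner that was also a member, the median distance of the summit to the nearer edge was 34.8% and 36.2% of the width and the median fold 9.86 and 8.24. With 2000 bp these values were 36 and 101 members, 21 in each line with such a partner, 23.5% and 26.9%, and 7.36 and 5.74. Taking as many wide peaks in each line left 379 RPMI-8402 members. An overlap of 50% of both peaks left 380 Jurkat and 519 RPMI-8402 members. In RPMI-8402 their summit distance was 32.9%, their fold 7.44 and their partner width 1503 bp. Summing the partners gave RPMI-8402 a width of 1446 bp. Pairs that differed 2-fold, with Jurkat or RPMI-8402 higher, numbered 12 and 81 by centred pileup, 6 and 0 by deposited fold, 65 and 33 over the lowest background, and 23 and 58 uncentred. The uncentred scale and the values without members of background 50 or more were chosen after seeing the data. The cause of these shifts was not tested, apart from the limits themselves. Members within 1000 bp of a gene start were not run, for want of hg19 annotation. No replicate could be left out. No paired analysis was possible because there was 1 library per line. At this depth, a gap in one line under a peak of the other cannot be told from signal just under the calling threshold.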
